A study of Mus musculus with 16 samples.

Results

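Oxidative phosphorylation genes were followed in thymocytes of mice with and without Tox4. Members were all genes of both count tables whose symbol starts with Nduf, Uqcr, Atp5, Cox4, Cox5, Cox6, Cox7 or Cox8, and 90 of the 24974 genes in both tables were found. They encode 45 proteins of complex I (7 core subunits, 30 accessory subunits and 8 assembly factors), 8 of complex III, 20 of complex IV and 17 of complex V. In oxidative phosphorylation, complexes I, III and IV pass electrons from NADH to oxygen and pump protons across the inner mitochondrial membrane. Complex V, the ATP synthase, lets the protons flow back and makes ATP. The nuclear genome encodes most of the subunits and the mitochondrial genome the others, and transcription factors such as NRF-1, GABP of the ETS family and YY1 are known to act on many of the nuclear genes. Thymocytes are known to differ in energy metabolism between the stages of their development, and complex II and the mitochondrially encoded subunits were not part of the members.

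Poly(A) RNA was sequenced in strand-specific libraries of CD4+CD8+ (DP) thymocytes and of sorted TCRβ+CD8+ (CD8) thymocytes, to find the genes that respond to loss of Tox4, a chromatin protein with an HMG box. The 16 samples came from young littermate mice matched by sex, 3 control and 3 cKO in DP cells and 5 control and 5 cKO in CD8 cells. Controls carried the floxed allele (Tox4 F/F) without Cre, and cKO mice carried Tox4 F/F with the Lck-Cre transgene, labelled Lck+ for DP and Lck-cre for CD8 samples. All groups therefore share the floxed allele, the transgene is carried by the cKO samples alone, and its proximal Lck promoter is active from the DN3 stage, before the DP stage. Total counts on genes were 16524506, 18484568 and 17221704 in the DP control samples, replicates in order, and 21154634, 14583336 and 25981683 in the DP cKO samples. They were 9420085, 10882293, 9899833, 10949265 and 13530783 in the CD8 control samples and 11687062, 11828492, 8905915, 8894000 and 8514135 in the CD8 cKO samples, so that counting error is larger in CD8 cells. Levels of 1 gene are given below in normalized CPM (counts scaled to the size of the library, by the TMM method over the 16 samples), and levels of different genes in TPM (scaled to exonic length as well). Positions are those of mm10.

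Tox4 itself (chr14:52279146-52295509) was measured at 149, 165 and 175 CPM in the DP control samples and 128, 135 and 129 CPM in the DP cKO samples. All 3 DP cKO samples lay below all 3 controls, without passing the test (log2 fold change -0.32, SE 0.11, adjusted p = 0.381 by the quasi-likelihood test of edgeR, with p-values adjusted after Benjamini and Hochberg). The CD8 control samples had 199, 191, 204, 206 and 183 CPM and the CD8 cKO samples 173, 188, 178, 237 and 167 CPM. The library labelled cKO replicate 4 held the highest value of all CD8 samples, and the groups overlapped (log2 fold change -0.06, SE 0.10, edgeR adjusted p = 0.979). Counts are per gene and include exons outside the floxed ones, and the RNA of the floxed exons alone was not tested. The same library, the library labelled cKO replicate 4, held 251 counts of Xist, the RNA of the inactive X chromosome, beside 850 counts of the Y-linked Ddx3y, whereas the other CD8 samples with Ddx3y RNA, control replicates 3 and 4 and cKO replicate 3, held 3, 2 and 3 Xist counts.

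The cell type labels were compared with marker genes. Of the 10 markers of DP thymocytes, all 10 were counted in every group, and their summed level was 15219, 12252 and 13243 TPM in the DP control samples and 3712, 3712, 3656, 3385 and 3448 TPM in the CD8 control samples. Cd8b1, which both cell types carry, was the most abundant of them. Rag1, a recombinase of DP cells, had 9144, 7124 and 8038 CPM in DP control and 92.97, 122, 22.2, 12.1 and 15.6 CPM in CD8 control samples. Cd4 had 1818, 1555 and 1864 CPM in DP control, 61.5, 66.4, 6.02, 3.67 and 10.5 CPM in CD8 control and 68.4, 77.7, 6.38, 5.87 and 7.28 CPM in CD8 cKO samples. The CD8 samples numbered 1 and 2 of both genotypes thus held more Cd4 and Rag1 RNA than those numbered 3 to 5, and less of Klf2, a factor of thymic egress, with 341, 262, 799, 948 and 717 CPM in CD8 control samples. CD8 control replicate 1, which is among the samples numbered 1 and 2, also stood apart in the number of genes counted. Counts were found for 17741 genes in it and for 13708 to 15054 genes in the remaining CD8 libraries. By Xist and Y-linked genes, the DP samples were all male, CD8 replicates 1, 2 and 5 of both genotypes female, and CD8 replicates 3 and 4 male apart from the Xist counts given above.

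The members were among the more abundant RNAs of control cells, and more so in DP than in CD8 cells. The median member reached 145 TPM in DP control cells, against 31.4 TPM over the genes tested, and 64.6 TPM in CD8 control cells, against 32.2 TPM. A mean of at least 100 TPM was found for 59 members in DP control and 28 in CD8 control cells. Atp5b, the catalytic beta subunit of complex V, was the most abundant member in both, at 1144 ± 104 TPM (SD, n = 3) in DP and 659.9 ± 96.9 TPM (SD, n = 5) in CD8 control cells. Atp5a1, the alpha subunit that forms the F1 head together with Atp5b, came next, at 975 ± 64.9 and 491 ± 80.02 TPM, and in both cell types the means of Atp5b and Atp5a1 lay within the sum of their SDs. The order below differed between the cell types. In DP control cells Atp5h, a peripheral stalk subunit, followed at 777 ± 45.3 TPM and Cox4i1, a regulatory subunit of complex IV, at 690.1 ± 77.1 TPM, and these neighbours lay within the sum of their SDs of each other. In CD8 control cells the members of rank 3 and 4 were Cox8a, a small subunit of complex IV, at 379 ± 50.5 TPM and Cox7a2l, a factor that joins complexes III and IV, at 351 ± 61.4 TPM, again within their SDs.

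Within complex I Ndufs1, a core subunit that carries iron-sulfur clusters, had 70.3 ± 8.95 TPM (SD, n = 3) in DP and 64.2 ± 7.59 TPM (SD, n = 5) in CD8 control cells. It was the lowest core subunit in DP control cells, while Ndufv1, at 60.2 ± 4.47 TPM, was lower by less than the SDs in CD8 control cells. Among accessory subunits Ndufb11 and Ndufa3 led in DP control cells, at 282 ± 25.4 and 282 ± 7.53 TPM, without a difference beyond their SDs. In CD8 control cells Ndufa10 led, at 164 ± 11.9 TPM, followed by Ndufa3, at 134 ± 35.6 TPM, again within their SDs. Assembly factors ranged from Ndufaf3 at 38.5 ± 4.50 TPM down to Ndufaf6 at 5.77 ± 1.14 TPM in DP control cells, and from Ndufaf4 at 14.7 ± 3.82 TPM down to Ndufaf2 at 5.39 ± 2.88 TPM in CD8 control cells. In complex III the hinge protein Uqcrh was highest in DP control cells, at 514 ± 25.4 TPM. In CD8 control cells Uqcrc1, at 199 ± 20.1 TPM, lay above Uqcrh, at 169 ± 26.8 TPM, by less than the sum of their SDs. Uqcrq, a small membrane subunit, was lowest in both, at 92.9 ± 12.2 and 28.00 ± 3.74 TPM, and in CD8 control cells Uqcr11 lay within the SDs of it. The lowest member of complex V in DP control cells was Atp5mpl, a small proteolipid of the membrane part, at 128 ± 11.5 TPM, and in CD8 control cells Atp5k, at 28.5 ± 9.49 TPM, followed by Atp5mpl at 42.8 ± 6.33 TPM.

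Complex IV has subunits with a broadly expressed and a tissue-restricted form, and the thymocytes carried the broad forms. Cox4i1 was read at 148, 197 and 193 CPM in DP control samples, and its partner Cox4i2, known from lung, at 0, 0.105 and 0 CPM. Cox6b1 had 62.3, 66.2 and 61.7 CPM there and Cox6b2, known from testis, 4.95, 3.87 and 3.21 CPM. Cox7a2 and Cox7b were likewise counted in every sample, whereas Cox7a1, a form of heart and skeletal muscle, had 0.398, 0.733 and 0.515 CPM in DP control samples. Cox7b2 and Cox8c, both known from testis, had 0 counts in all 16 samples. Cox8b, the muscle form beside Cox8a, and Ndufa4l2, the form beside Ndufa4 that is known from hypoxic cells, had at most 0.879 and 0.220 CPM in any sample, both in CD8 control replicate 1. The 3 genes of the proton-carrying c subunit of complex V, which differ in their import sequences and give the same mature protein, were all expressed, with Atp5g3 at 516 ± 41.5 TPM, Atp5g2 at 403 ± 35.6 TPM and Atp5g1 at 146 ± 7.12 TPM in DP control cells. In CD8 control cells Atp5g2 led, at 288 ± 40.7 TPM, followed by Atp5g3 at 141 ± 8.36 TPM and Atp5g1 at 97.1 ± 20.7 TPM. The change of order between Atp5g2 and Atp5g3 was larger than the spread of the samples, as their means lay more than the sum of their SDs apart in both cell types.

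Some members could not be read reliably. Ndufs5, an accessory subunit of complex I, had 0 counts in 14 of 16 samples and 1 and 2 counts in DP cKO replicates 2 and 3. Exons of Ndufs5 overlap exons of BC002163 on the same strand in the annotation of the tables. RNA of the shared stretches cannot be told apart from that of BC002163 by these counts. Of 88 members with a reference transcript, 19 had a stretch of at least 95% identity in another gene and 7 of at least 99%, namely Atp5g1, Atp5l, Cox5b, Ndufa12, Ndufab1, Ndufb4 and Ndufs5. Their counts are uncertain where reads could be split between copies. Exons of 12 members overlap exons of a gene on the opposite strand, and counting was strand-specific.

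**Figure D1:**
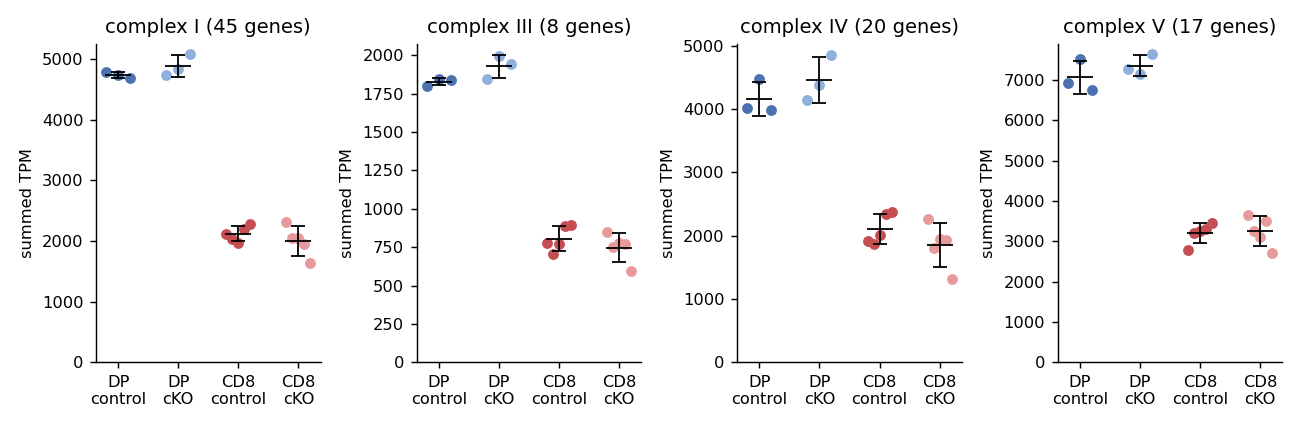
Summed level in TPM of the members of each complex in each of the 16 samples (points), by cell type and genotype, with bars for the group mean ± SD. Every CD8 sample lies below every DP sample in each complex, and the lowest CD8 sample in the complexes I, III, IV and V is cKO replicate 5.

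The first comparison was between control cells, CD8 against DP, and in it most members were lower in CD8 cells. Summed over the members, RNA levels were 17519, 18589 and 17283 TPM in the DP control samples and 7605, 7803, 8004, 8739 and 9011 TPM in the CD8 control samples. No DP sample came near a CD8 sample, and the ratio of the means was 0.463. By complex, the ratio was 0.448 for complex I, 0.441 for complex III, 0.506 for complex IV and 0.453 for complex V. Of the 90 members, 81 passed the filter on low counts, 71 fell and 1 rose (edgeR adjusted p under 0.05). Over all 11758 genes tested, 30.4% fell and 29.9% rose. The median log2 fold change of the members was -1.26, against -0.01 over all genes tested. With the minimum fold change of 1.5 and minimum mean TPM of 1 that the study used as well, 69 members fell, beside 22.3% of all genes tested, and 1 rose, beside 22.0%. Without CD8 control replicate 1, the library with the most genes counted, 71 members fell and 1 rose. Over all 90 members, those not tested included, every CD8 control sample lay below every DP control sample in 70 and above in 1. The same count over all genes is not given here. DP and CD8 samples also differ in the count table they come from, which cannot be told apart from cell type. They differ in part in sex, and with the male CD8 control samples alone 72 members fell and 0 rose by edgeR (1 at an unadjusted p under 0.05), beside 27.2% and 26.0% of all genes tested. In bulk samples, fewer cells of a type and less RNA per cell cannot be told apart, and normalized values are shares of the RNA counted in a sample.

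**Figure D2:**
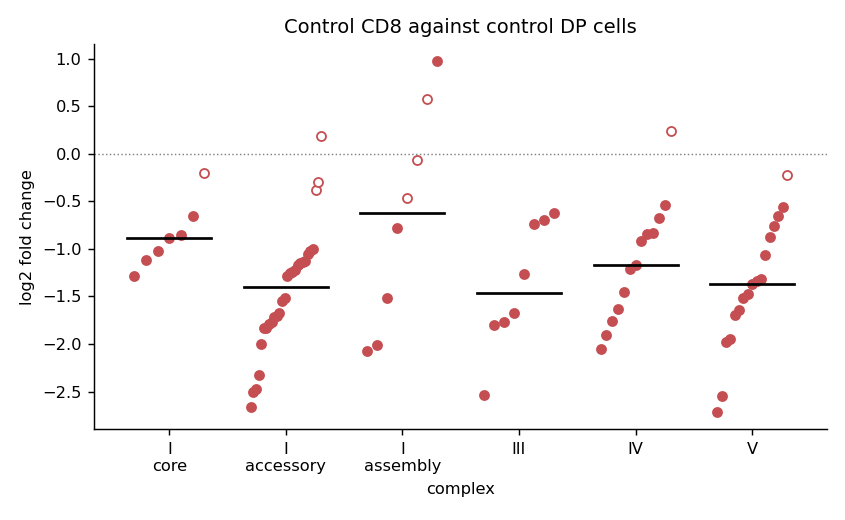
Log2 fold change of each tested member between control CD8 and control DP cells, grouped by complex and role, with a bar for the median of each class and filled points for an edgeR adjusted p under 0.05. Most points lie below 0 and Ndufaf6 is the 1 filled point above it, while with an offset for exonic length, not plotted, 9 of the points below 0 turn positive.

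Because the members moved together between the cell types, their promoters were read for motifs of the factors named above. RefSeq promoters (GRCm38.p6, 250 bases before to 50 after the start) were matched by symbol for 73 of the 90 members. The letters searched on both strands were GCATGCGC for NRF-1, CCGGAAGT for ETS factors and AAGATGGC for YY1. A member was counted if any of its promoter entries held the letters, while the share over all promoters counts each entry once. A member with several entries thus had more chances of a match, and the shares below are not measured alike. NRF-1 letters were found in 11 members (15.1%, against 2.71% of 32851 promoters of this length). ETS letters were found in 5 (6.85% against 3.89%) and YY1 letters in 11 (15.1% against 2.75%), and 26 members (35.6% against 8.83%) held at least 1 of the 3 motifs. No match of a motif overlapped that of another motif, while the NRF-1 letters often overlapped their own reverse complement. In 9 of the 11 members with YY1 letters the match began downstream of the start. The 150 bases before the start are shown for a member of complexes I, III and V each, 5′ to 3′ on the strand of the gene, with matches in capitals. They were chosen as the member of the complex with the smallest p between control cells among those with a match there. Ndufa11, an accessory subunit of complex I, lies on the plus strand (chr17:56717612-56717761 for the bases shown), Uqcrh on the minus strand (chr4:116075071-116075220) and Atp5k on the minus strand (chr5:108434400-108434549).
Ndufa11, NRF-1 letters on both strands: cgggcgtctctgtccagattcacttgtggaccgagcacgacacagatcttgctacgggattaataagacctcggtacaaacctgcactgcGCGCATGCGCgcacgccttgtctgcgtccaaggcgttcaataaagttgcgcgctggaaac
Uqcrh, ETS letters on the opposite strand: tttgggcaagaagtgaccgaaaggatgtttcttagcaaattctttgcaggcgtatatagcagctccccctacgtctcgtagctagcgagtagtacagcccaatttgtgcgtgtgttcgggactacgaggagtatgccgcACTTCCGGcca
Atp5k, NRF-1 letters on both strands: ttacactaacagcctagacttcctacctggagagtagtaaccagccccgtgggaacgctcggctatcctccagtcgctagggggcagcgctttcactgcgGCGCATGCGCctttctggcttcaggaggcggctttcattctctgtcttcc
A match describes letters and shows no binding.

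The core subunits of complex I hold the flavin and the iron-sulfur clusters that carry electrons from NADH to quinone. In control CD8 cells 6 of the 7 fell, with a median log2 fold change of -0.88. Ndufs3 (chr2:90894627-90904721), a subunit of the arm that leads to the quinone site, had 44.5, 49.3 and 52.00 CPM in DP control samples and 14.8, 19.9, 20.2, 21.9 and 20.5 CPM in CD8 control samples. The highest CD8 value was below the lowest DP value by more than the spread of either group (log2 fold change -1.29, SE 0.14, edgeR adjusted p = 8.01e-06). For Ndufv1 (chr19:4007499-4012755), which binds NADH, values were 70.3, 66.2 and 66.7 CPM in DP control samples and 27.6, 29.1, 31.01, 31.5 and 33.5 CPM in CD8 control samples. These groups did not overlap either (log2 fold change -1.12, SE 0.10, edgeR adjusted p = 2.9e-06). CD8 control replicate 1 was the lowest CD8 control sample for both Ndufs3 and Ndufv1. The core subunit that did not pass was Ndufs1, with 74.5, 71.03 and 62.5 CPM in DP control samples and 49.3, 61.05, 64.6, 58.2 and 62.7 CPM in CD8 control samples. Its groups overlapped (log2 fold change -0.20, SE 0.12, edgeR adjusted p = 0.153).

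Accessory subunits surround the core of complex I, and 25 of the 28 tested fell in control CD8 cells, with a median log2 fold change of -1.40. The largest falls were those of Ndufa2 and Ndufa1. Ndufa2 (chr18:36742332-36744587), which has a thioredoxin-like fold, had 26.9, 31.3 and 30.3 CPM in DP control samples and 2.42, 3.91, 3.98, 6.21 and 6.05 CPM in CD8 control samples. Its DP values were several times the highest CD8 value (log2 fold change -2.66, SE 0.24, edgeR adjusted p = 2.23e-06). Ndufa1 (chrX:37187589-37191238), a small membrane subunit, had 16.9, 20.3 and 20.4 CPM in DP control samples and 4.51, 1.96, 3.06, 3.29 and 3.74 CPM in CD8 control samples, again without overlap (log2 fold change -2.51, SE 0.23, edgeR adjusted p = 2.26e-06). Ndufa11, whose promoter is shown above, had 46.1, 44.8 and 38.3 CPM in DP control samples and 20.3, 18.4, 19.6, 20.3 and 23.1 CPM in CD8 control samples (log2 fold change -1.05, SE 0.12, edgeR adjusted p = 1.69e-05). Ndufa10, Ndufa12 and Ndufab1 did not pass, with log2 fold changes of 0.19, -0.30 and -0.38. Ndufa10 (chr1:92439719-92473758), a subunit of the membrane arm, had 49.4, 58.3 and 60.2 CPM in DP control samples and 57.8, 56.4, 65.7, 66.2 and 66.5 CPM in CD8 control samples, and the groups overlapped. It passed as higher with the length offset (log2 fold change 0.60, edgeR adjusted p = 0.000488) and without the CD8 samples numbered 1 and 2 (0.0417). The other 2 are among the members with near-identical copies, and Ndufa12 fell with the male CD8 samples alone (edgeR adjusted p = 0.0199, over the alternatives from 0.0199 to 0.388), while with the length offset its log2 fold change turned to 0.22 without passing.

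Assembly factors of complex I, which are not part of the finished enzyme, were more mixed, as 4 of 8 fell and 1 rose (median log2 fold change -0.62). Ndufaf3 (chr9:108565588-108567436), a factor of the quinone module, had 20.1, 17.5 and 18.3 CPM in DP control samples and 3.74, 5.69, 3.47, 4.99 and 4.71 CPM in CD8 control samples, lower in all 5 CD8 samples (log2 fold change -2.01, SE 0.19, edgeR adjusted p = 2.85e-06). Ndufaf8 (chr11:120098934-120100424) had few counts, at 5.06, 6.23 and 5.61 CPM in DP control samples and 1.10, 0.932, 0.306, 1.51 and 2.54 CPM in CD8 control samples. It fell in this test (log2 fold change -2.08, SE 0.44, edgeR adjusted p = 0.00167), and was past the threshold no longer with an offset for exonic length, a setting added after seeing the data (edgeR adjusted p = 0.0568, over the alternatives from 3.8e-05 to 0.0568). Ndufaf2 and Ndufaf1 fell as well, with log2 fold changes of -1.51 and -0.78, and Ndufaf2 lost the call with the replicate block (edgeR adjusted p = 0.0561) and with the length offset (0.14), over alternatives from 0.000913 to 0.14. Ndufaf6 (chr4:11051046-11076205), the member that rose, was read at 2.05, 2.56 and 1.72 CPM in DP control samples and 2.86, 5.13, 4.28, 3.48 and 4.56 CPM in CD8 control samples. All 5 CD8 samples were above all 3 DP samples, though control replicate 1 by little (log2 fold change 0.97, SE 0.31, edgeR adjusted p = 0.0173). The call of Ndufaf6 was lost without DP control replicate 3 (edgeR adjusted p = 0.0684), with the replicate number as a block (0.0868) and with the male CD8 samples alone (0.0604), in a range of adjusted p from 0.00207 to 0.0868 over the alternatives. Its log2 fold changes in these fits were 0.85, 0.96 and 0.91, in the same order. Ndufaf4 was higher without passing, at 8.82, 14.97 and 10.8 CPM in DP control samples and 23.1, 19.1, 11.6, 14.7 and 15.8 CPM in CD8 control samples (log2 fold change 0.57, SE 0.24, edgeR adjusted p = 0.0578), and Ndufaf5 and Ndufaf7 did not pass, with log2 fold changes of -0.47 and -0.07. Without DP control replicate 1 Ndufaf5 passed as lower (edgeR adjusted p = 0.0427, over the alternatives from 0.0427 to 0.225), and without CD8 control replicate 1 the estimate for Ndufaf7 was 0.03. Without DP control replicate 2, 3 members rose (Ndufaf6, Ndufaf4 and Cox8a), and without CD8 control replicate 3, 2 rose (Ndufaf4 and Ndufaf6). Ndufaf4 also passed by DESeq2 (adjusted p = 0.0372).

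Complex III passes electrons from quinol to cytochrome c, and all 8 of its members fell in control CD8 cells, with a median log2 fold change of -1.47. Uqcr11 (chr10:80402997-80406821), a small accessory subunit, had 24.3, 29.8 and 21.2 CPM in DP control samples and 3.74, 2.70, 3.77, 6.77 and 4.18 CPM in CD8 control samples. Every CD8 value was well under the DP values (log2 fold change -2.54, SE 0.24, edgeR adjusted p = 3.88e-06). Uqcrq (chr11:53427922-53430831), which binds next to cytochrome b, had 38.97, 54.7 and 50.7 CPM in DP control samples and 14.7, 10.3, 12.4, 14.5 and 15.5 CPM in CD8 control samples, without overlap (log2 fold change -1.80, SE 0.16, edgeR adjusted p = 2.09e-06). Uqcrh (chr4:116066965-116075070), the hinge between the complex and cytochrome c, had 91.9, 91.7 and 101 CPM in DP control samples and 25.2, 24.4, 27.2, 36.7 and 32.6 CPM in CD8 control samples (log2 fold change -1.67, SE 0.14, edgeR adjusted p = 1.16e-06). The smallest falls were those of the core protein Uqcrc1 and of Uqcrb. Uqcrc1 (chr9:108936648-108949641) had 134, 174 and 181 CPM in DP control samples and 101, 86.7, 106, 108 and 119 CPM in CD8 control samples, with all CD8 samples below the DP samples (log2 fold change -0.62, SE 0.13, edgeR adjusted p = 0.00111). Uqcrb (chr13:66900576-66905350) had 29.8, 26.5 and 30.2 CPM in DP control samples and 27.4, 17.4, 10.8, 17.03 and 15.02 CPM in CD8 control samples, where CD8 control replicate 1 lay within the DP range (log2 fold change -0.69, SE 0.23, edgeR adjusted p = 0.0212). Uqcrb lost the call without DP control replicate 1, DP control replicate 3 or CD8 control replicate 5 (edgeR adjusted p = 0.054, 0.0648 and 0.0509), with the replicate block (0.0642) and with all 4 groups in one fit (0.0663). With the length offset it turned to a log2 fold change of 0.33 without passing, at an adjusted p of 0.215, the highest over the alternatives, the lowest being 0.000751.

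Complex IV, cytochrome c oxidase, hands the electrons to oxygen. Of its 20 members 13 could be tested and 12 fell (median log2 fold change -1.17). With the offset for exonic length described below, 7 of these 12 calls were lost, 3 of the 7 estimates were above 0 and the median was -0.27. Cox7a2 (chr9:79755241-79759853), the broad form of subunit VIIa, had 43.5, 49.6 and 41.00 CPM in DP control samples and 11.6, 9.32, 10.8, 10.6 and 10.5 CPM in CD8 control samples. The CD8 samples lay close together, far under the DP samples (log2 fold change -2.05, SE 0.13, edgeR adjusted p = 1.17e-07). Cox4i1 (chr8:120668225-120674209), the largest subunit of nuclear origin, had 148, 197 and 193 CPM in DP control samples and 36.9, 38.2, 41.4, 57.9 and 59.02 CPM in CD8 control samples, without overlap (log2 fold change -1.91, SE 0.17, edgeR adjusted p = 2.2e-06). Cox6a1 (chr5:115345623-115348958), the broad form of subunit VIa, had 86.9, 127 and 111 CPM in DP control samples and 29.1, 42.2, 45.3, 61.7 and 57.4 CPM in CD8 control samples, also without overlap (log2 fold change -1.17, SE 0.21, edgeR adjusted p = 0.000439). With the offset for exonic length described below it did not pass (edgeR adjusted p = 0.538). Cox7a2l (chr17:83501917-83514333) fell less, from 181, 192 and 195 CPM in DP control to 117, 93.6, 129.6, 162 and 136 CPM in CD8 control samples (log2 fold change -0.54, SE 0.14, edgeR adjusted p = 0.0065), and lost the call with the male CD8 samples alone (edgeR adjusted p = 0.0502) and with the offset for exonic length (0.51). Ndufa4, first described in complex I and now known as a subunit of complex IV, had a log2 fold change of -0.84 (edgeR adjusted p = 0.000704), which turned to 0.25 without passing with the length offset. Cox6b2, the 1 tissue-restricted form tested, had 4.95, 3.87 and 3.21 CPM in DP control samples and 3.52, 1.77, 1.12, 0.564 and 1.57 CPM in CD8 control samples and overlapped between the groups in CD8 control replicate 1 (log2 fold change -1.21, SE 0.46, edgeR adjusted p = 0.0373). The call of Cox6b2 rests on few counts and was lost without any 1 of the 3 DP control samples or of CD8 control replicates 2 to 5 (edgeR adjusted p from 0.0027 to 0.636 over all alternatives). Cox8a (chr19:7215158-7217616) was the member of complex IV that did not pass with all samples. It had 43.01, 74.7 and 50.8 CPM in DP control samples and 59.6, 60.02, 54.9, 75.2 and 76.4 CPM in CD8 control samples, and DP control replicate 2 lay among the highest CD8 samples (log2 fold change 0.24, SE 0.18, edgeR adjusted p = 0.27). Without that sample Cox8a passed as higher (log2 fold change 0.51, edgeR adjusted p = 0.0268), as it did with the length offset (1.29, edgeR adjusted p = 2.69e-05, over the alternatives from 2.69e-05 to 0.729).

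**Figure D3:**
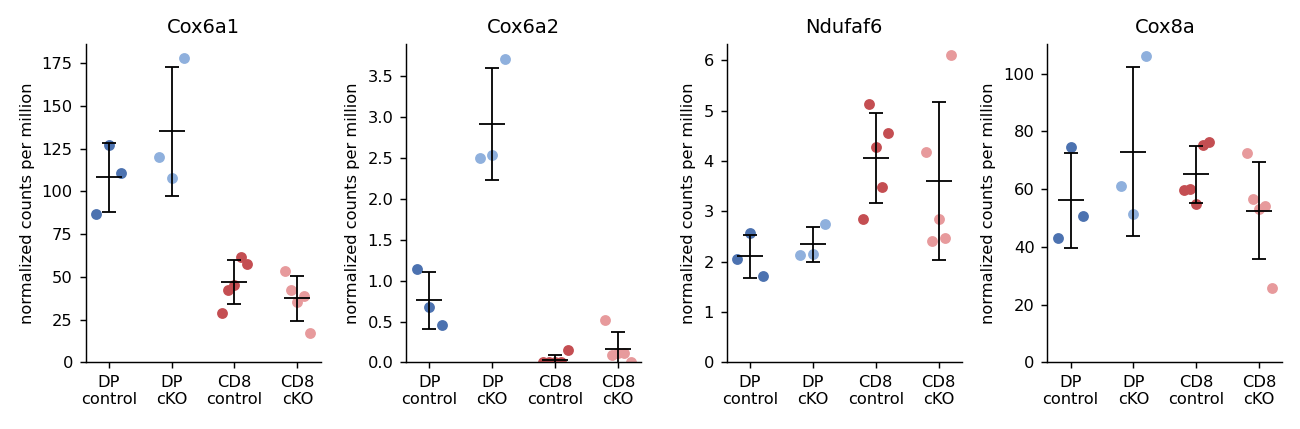
Normalized CPM of Cox6a1, Cox6a2, Ndufaf6 and Cox8a in each of the 16 samples (points), by group, with the group mean ± SD, on a separate linear axis for each gene. Cox6a1 is lower in all CD8 samples than in all DP control samples, Ndufaf6 is higher in CD8 control than in DP control samples, and Cox6a2 is highest in the 3 DP cKO samples.

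In complex V, 16 of 17 members fell, with a median log2 fold change of -1.37. By role, 4 of 5 subunits of the F1 head and central stalk fell (median -0.87), as did all 3 genes of the c ring (median -0.65) and all 9 other subunits of the membrane part and the peripheral stalk (median -1.52). Atp5k (chr5:108433246-108434399), subunit e of the membrane part, which is known from the dimers of the enzyme, had 18.8, 21.9 and 17.1 CPM in DP control samples and 4.51, 2.33, 1.84, 3.10 and 2.69 CPM in CD8 control samples. This was the largest fall of all members (log2 fold change -2.71, SE 0.24, edgeR adjusted p = 2.24e-06). Atp5e (chr2:174461075-174464101), the epsilon subunit of the central stalk, had 41.3, 49.8 and 41.2 CPM in DP control samples and 7.47, 5.41, 6.73, 8.09 and 9.26 CPM in CD8 control samples, without overlap (log2 fold change -2.54, SE 0.17, edgeR adjusted p = 1.91e-07). The catalytic subunit Atp5b (chr10:128083307-128090388) fell less, with 644, 821 and 719 CPM in DP control samples and 298, 414, 417, 403 and 421 CPM in CD8 control samples (log2 fold change -0.87, SE 0.13, edgeR adjusted p = 0.000113). CD8 control replicate 1 was the lowest of its group for Atp5b. Of the c ring genes, Atp5g3 (chr2:73908447-73911326) had 113, 141 and 126 CPM in DP control samples and 35.5, 29.9, 29.5, 32.4 and 33.5 CPM in CD8 control samples (log2 fold change -1.95, SE 0.11, edgeR adjusted p = 6.01e-08). Atp5g2 (chr15:102662868-102671047) had 78.97, 99.6 and 86.6 CPM in DP control samples and 46.05, 57.04, 58.2, 70.5 and 61.9 CPM in CD8 control samples, a smaller fall that still separated the groups (log2 fold change -0.56, SE 0.14, edgeR adjusted p = 0.00361). With the offset for exonic length Atp5g2 was higher instead, with a log2 fold change of 0.36 (edgeR adjusted p = 0.0397, the highest over the alternatives, from 0.000606). Atp5g1 turned to 0.018 with that offset without passing (edgeR adjusted p = 0.928), while Atp5g3 still fell. The member of complex V that did not pass was Atp5d, the delta subunit of the central stalk, with 77.9, 114 and 89.5 CPM in DP control samples and 67.7, 70.8, 80.3, 90.4 and 86.1 CPM in CD8 control samples and overlapping groups (log2 fold change -0.22, SE 0.14, edgeR adjusted p = 0.196). With that offset it passed as higher (log2 fold change 0.36, edgeR adjusted p = 0.0293, over the alternatives from 0.0293 to 0.791).

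The members are short genes, and the difference between control cells moved with length. Their median exonic length was 752 bases, from 320 to 3632, against 3051.5 over the genes tested. Genes of up to 1000 exonic bases took 3.97, 4.42 and 4.20% of the counts in the DP control samples and 2.95, 2.38, 2.61, 3.15 and 3.05% in the CD8 control samples. Among genes of up to 600 bases, the median log2 fold change was -1.67 for 25 members and -0.75 for 223 other genes. Over 600 and up to 1000 bases it was -1.48 for 25 members and -0.69 for 511 other genes, and over 1000 and up to 5000 bases -0.88 for 31 members and -0.06 for 8485 other genes. The members were lower than other genes in each range of length. With each fold change set against the median of the genes in the same 1 of 10 groups by exonic length, the median of the members was -0.76. With an offset for exonic length in each sample, added after seeing the data, 51 members fell, beside 31.1% of all genes tested, and 5 rose, beside 26.5% (Cox8a, Ndufa10, Ndufaf6, Atp5d and Atp5g2), and the median was -0.67. Of the 71 members that fell at first, 20 did not with this offset, and the estimates of 7 of these were then above 0 (Atp5g1, Atp5g2, Cox5a, Cox5b, Ndufa4, Ndufs7 and Uqcrb). The estimates of Atp5d and Ndufa12, which had not passed, also turned positive, and Ndufa12 did not pass with the offset. By class, 5 of 7 core subunits (median -0.64 with the offset), 19 of 28 accessory subunits (-0.90) and 2 of 8 assembly factors of complex I (-0.51), 7 of 8 members of complex III (-0.71), 5 of 13 of complex IV (-0.27) and 13 of 17 of complex V (-0.73) fell with it. The part of fragment length or RNA quality in the trend was not tested.

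**Figure D4:**
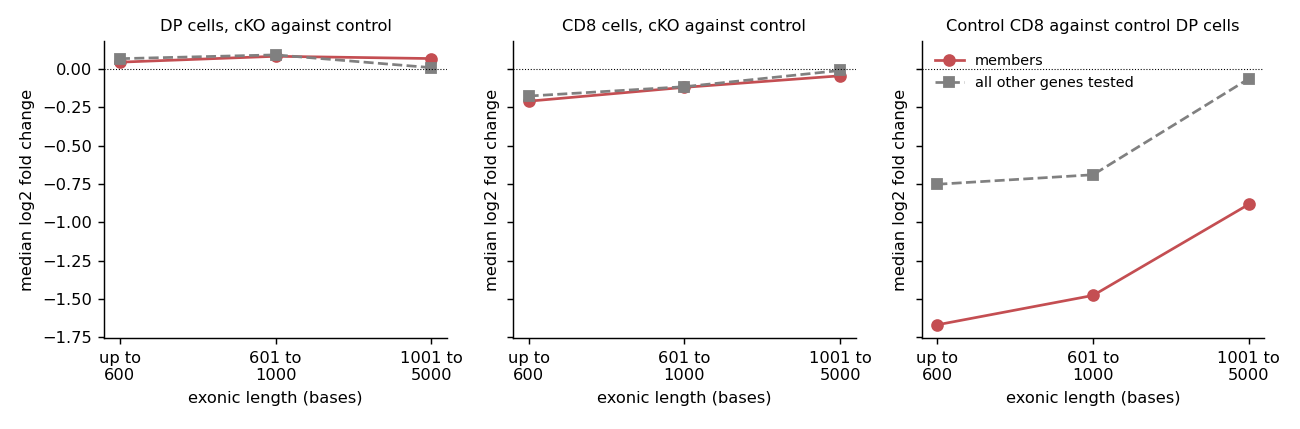
Median log2 fold change of the members and of the other genes tested, by range of exonic length in bases, in the 3 comparisons, on a shared linear axis. In control CD8 against control DP cells the members are lower than the other genes in each range they occupy, and in the cKO comparisons both kinds of genes are near 0.

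Other genes of the pathway were read from lists that the name rule does not hold. Of 10 genes of complex II and cytochrome c, 6 fell and 1 rose in control CD8 against control DP cells (median log2 fold change -0.86). Sdhb, the iron-sulfur subunit of complex II, fell from 88.2, 97.6 and 91.9 to 39.9, 41.8, 44.5, 49.4 and 46.99 CPM (log2 fold change -1.03, SE 0.10, edgeR adjusted p = 5.73e-06). Sdhaf1, an assembly factor of complex II, was the gene that rose, from 8.08, 8.32 and 6.70 to 18.7, 12.95, 20.7, 21.5 and 15.02 CPM (log2 fold change 1.23, SE 0.20, edgeR adjusted p = 0.000253). Of 38 further assembly factors of complexes I, III, IV and V, 18 fell and 6 rose (median -0.50). Uqcc3, an assembly factor of complex III, fell by 2.03 on the log2 scale (edgeR adjusted p = 4.07e-06), and Atpif1, an inhibitor of complex V, fell by 1.37 (edgeR adjusted p = 6.73e-06). Of 78 proteins of the mitochondrial ribosome, 53 fell and 3 rose (median -0.81), with Mrps2, Mrps18b and Mrps15 the ones that rose, beside 30.4% of all genes tested that fell and 29.9% that rose. Mrps15 lost the call without DP control replicate 1 or 3 or CD8 control replicate 2 or 5 (edgeR adjusted p up to 0.171 over the alternatives). Of the 26 mitochondrially encoded subunits and RNAs of the list, 0 were found by symbol in both count tables, so they could not be analysed here.

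Of 15 regulators of these genes, 5 fell and 3 rose (median -0.20), beside 30.4% and 29.9% of all genes tested, so that the 33.3% that fell were near the share over all genes. Pprc1, a coactivator of NRF-1 target genes, rose from 54.7, 50.04 and 47.8 CPM in DP control to 239, 269.8, 200.5, 190.3 and 214 CPM in CD8 control samples. All CD8 values were several times the DP values (log2 fold change 2.16, SE 0.13, edgeR adjusted p = 1.18e-07). Ppargc1b and Polg2 were the others that rose, with log2 fold changes of 1.35 and 0.76. Polg, the catalytic subunit of the mitochondrial DNA polymerase, fell from 233, 274 and 297 to 69.9, 91.8, 83.1, 88.2 and 88.98 CPM (log2 fold change -1.64, SE 0.11, edgeR adjusted p = 2.42e-07). Nrf1, which encodes the factor NRF-1, Esrra, Tfam and Yy1 fell as well, with log2 fold changes of -0.84, -0.97, -0.52 and -0.38. Tfam and Yy1 lost the call with the male CD8 samples alone, with edgeR adjusted p-values of 0.0569 and 0.0637, the highest over the alternatives, and Polg2 without DP control replicate 1 (0.0867, likewise the highest). Ppargc1a, the coactivator known from muscle and brown fat, had at most 1.10 CPM in any sample and was not tested.

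Of 14 glycolysis enzymes, 5 fell (Pfkm, Pgk1, Gapdh, Tpi1 and Ldha) and 5 rose (Pgam1, Hk2, Hk1, Pfkp and Gpi1), with a median log2 fold change of -0.04. These shares, 35.7% each, were near those over all genes tested. The call of Tpi1 was lost without DP control replicate 2 (edgeR adjusted p = 0.0542, the highest over the alternatives). Ldha lost it without DP control replicate 1 or 2 or CD8 control replicate 1, 3 or 4, Pfkp without DP control replicate 2 or 3 or CD8 control replicate 4 or 5, and Gpi1 without DP control replicate 1 or CD8 control replicate 3, 4 or 5, with edgeR adjusted p-values of at most 0.13, 0.229 and 0.168 over all alternatives. With the length offset Gapdh, Hk1, Ldha, Pfkp and Gpi1 lost the call (edgeR adjusted p = 0.126, 0.346, 0.0997, 0.192 and 0.0753). With the replicate block Hk1, Pfkp and Gpi1 lost it (edgeR adjusted p = 0.0571, 0.229 and 0.168). With no filter on low counts Pfkp and Gpi1 lost it (edgeR adjusted p = 0.0531 and 0.0706). Gpi1 also lost it with all 4 groups in one fit and with the male CD8 samples alone (edgeR adjusted p = 0.106 and 0.0573). Of 82 cytosolic ribosomal protein genes, which are short like the members, 56 fell and 4 rose (Rps2, Rps26, Rpsa and Rps6), with a median of -0.68. Rps6 lost its call without any 1 of the DP control samples and without CD8 control replicate 3, 4 or 5 (edgeR adjusted p up to 0.141). It also lost the call with upper-quartile normalization, with no filter and with all 4 groups in one fit (edgeR adjusted p = 0.055, 0.0618 and 0.123). With the replicate block both Rps6 and Rpsa lost the call (edgeR adjusted p = 0.303 and 0.054). RNA of dividing cells was also lower in control CD8 than in control DP cells. All 12 markers of cycling cells were counted in every group, and 10 of them fell in control CD8 cells (median -1.65). Their summed level was 1209, 1294 and 758 TPM in DP control and 265, 567, 449, 454 and 532 TPM in CD8 control samples, with Top2a, a topoisomerase of dividing cells, the most abundant. The part of cycling cells in the fall of the members was not tested.

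The second comparison asked how loss of Tox4 changed the members in DP cells, and none passed the test. Of 83 members tested, 0 rose and 0 fell by edgeR, beside 0.0851% and 0.0596% of all 11748 genes tested. With the replicate number as a block, 0 members rose and 0 fell as well, beside 84 genes higher and 68 lower of the 11748. At an unadjusted p under 0.05, 1 member was higher and 0 lower, beside 5.07% and 4.11% of all genes. By DESeq2, 1 rose (Cox6a2) and 0 fell, beside 0.894% and 0.664%, so 1 of 83 was near the share over all genes. Summed over the members, levels were 17519, 18589 and 17283 TPM in the control and 18008, 18358 and 19514 TPM in the cKO samples, and the groups overlapped. The median log2 fold change was 0.07, against -0.00 over all genes tested, and 65 of the 83 estimates were positive. By complex the median was 0.07 for the core subunits, 0.07 for the accessory subunits and 0.09 for the assembly factors of complex I. It was 0.11 for complex III, 0.09 for complex IV and 0.07 for complex V. Set against genes of the same length group, the median over the members was 0.00.

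Cox6a2 (chr7:128205435-128206366) stood out in DP cells. It encodes the form of subunit VIa of complex IV that is known from heart and skeletal muscle. Counts were 20, 13 and 8 in the DP control samples and 55, 39 and 96 in the DP cKO samples. As normalized values these were 1.14, 0.681 and 0.458 CPM in control and 2.50, 2.54 and 3.71 CPM in cKO samples. All 3 cKO samples were above all 3 controls, on few counts. The log2 fold change was 1.94 (SE 0.41, unadjusted p = 0.00105 and adjusted p = 0.131 by edgeR), so Cox6a2 did not pass the main test. By DESeq2 the adjusted p was 0.00733, within a range of 0.00733 to 0.521 over the alternatives. In CD8 cells Cox6a2 was at or near 0, with 0, 0, 0, 0 and 2 counts in control and 6, 1, 1, 1 and 0 counts in cKO samples. Its broad partner Cox6a1 had 86.9, 127 and 111 CPM in DP control and 119.9, 108 and 178 CPM in DP cKO samples, with overlapping groups (log2 fold change 0.32, SE 0.20, edgeR adjusted p = 0.71). The 6 markers of muscle and other tissues summed to 15.3, 24.1 and 18.4 TPM in DP control and 19.1, 27.99 and 24.8 TPM in DP cKO samples, with Tnnt3 the most abundant and 2 of the 6 at 0 in each of these groups. Exons of Itgad overlap those of Cox6a2 on the opposite strand.

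Among the other members with the smallest p in DP cells were 2 subunits of complex III. Uqcr10 (chr11:4701968-4704344), a small membrane subunit, had 42.95, 43.7 and 45.4 CPM in control and 48.2, 50.1 and 56.4 CPM in cKO samples. The cKO values were all above the control values, by little (log2 fold change 0.23, SE 0.11, edgeR adjusted p = 0.616). Uqcr11 had 24.3, 29.8 and 21.2 CPM in control and 29.98, 25.8 and 36.2 CPM in cKO samples, with overlap (log2 fold change 0.29, SE 0.18, edgeR adjusted p = 0.69). The lower members with the smallest p belonged to complex V. Atp5md (chr19:47083471-47090647), a small subunit known as DAPIT, had 30.4, 38.5 and 33.6 CPM in control and 29.1, 32.5 and 32.9 CPM in cKO samples, which overlapped (log2 fold change -0.12, SE 0.14, edgeR adjusted p = 0.861). Atp5e had a log2 fold change of -0.11 (SE 0.14, edgeR adjusted p = 0.872) and Atp5l, subunit g of the membrane part, one of -0.09 (SE 0.12, edgeR adjusted p = 0.887). The catalytic subunit Atp5b had 764, 713 and 960.0 CPM in the cKO samples, with cKO replicate 3 the highest, and overlapped the control samples (log2 fold change 0.15, SE 0.14, edgeR adjusted p = 0.825).

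**Figure D5:**
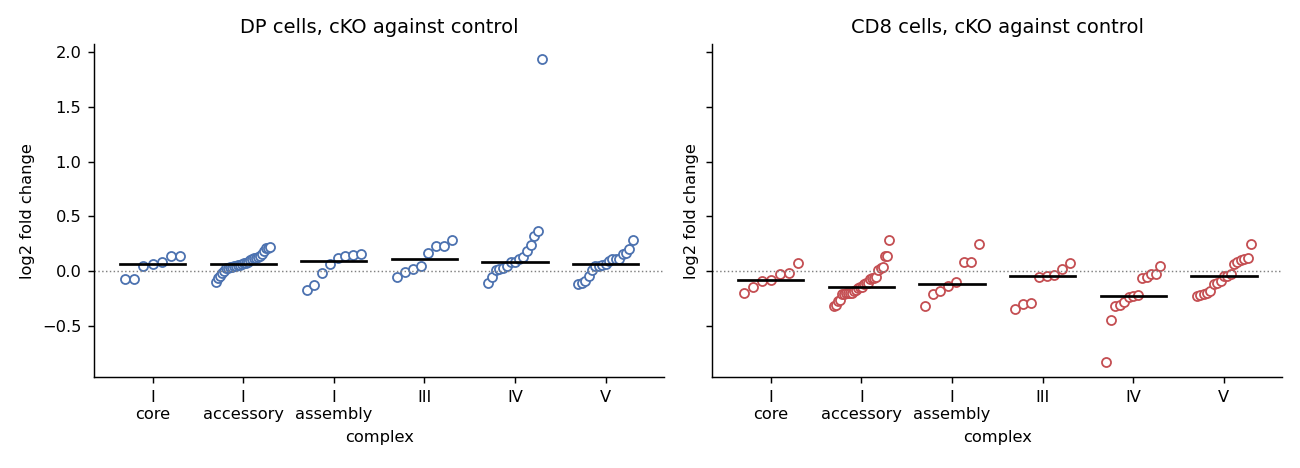
Log2 fold change of each tested member between cKO and control cells, in DP cells and in CD8 cells, grouped by complex and role, with a bar for the median of each class and open points as none passed. The points lie around 0, mostly above it in DP and below it in CD8 cells, and Cox6a2 in DP cells is the point farthest from 0.

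The third comparison was that of cKO and control CD8 cells, and again no member passed. Of 81 members tested, 0 rose and 0 fell by edgeR, beside 0.0891% and 0.0178% of all 11227 genes tested. At an unadjusted p under 0.05, 0 members were higher and 2 lower, beside 3.06% and 2.54% of all genes, so the 2 of 81 were near the share over all genes. DESeq2 gave 0 and 0, beside 0.445% and 0.196%. The summed level was 7605, 7803, 8004, 8739 and 9011 TPM in the control and 9080, 7880, 7896, 8169 and 6257 TPM in the cKO samples. Both groups spanned a similar range except for cKO replicate 5, which was the lowest of all 16 samples. The median log2 fold change was -0.11, against -0.01 over all genes tested, and 19 of 81 estimates were positive. Without the library labelled cKO replicate 4 the median was -0.12 and 0 members passed by edgeR, with 0 higher and 2 lower at an unadjusted p under 0.05. By complex the median was -0.08 for core subunits, -0.15 for accessory subunits and -0.12 for assembly factors of complex I, -0.05 for complex III, -0.23 for complex IV and -0.04 for complex V.

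Single libraries moved the median in CD8 cells. In cKO replicate 5, genes of up to 1000 exonic bases took 1.68% of the counts, against 2.38% to 3.15% in the other CD8 samples, and the cytosolic ribosomal proteins summed to 48499 TPM, the lowest of all samples. Without it the median of the members was -0.02. Without cKO replicate 1 it was -0.19, and without both samples numbered 1 it was -0.19. Without the samples numbered 1 and 2 of both genotypes, which held more Cd4 and Rag1 RNA, it was -0.32, a setting added after seeing the data. In it 0 members passed by edgeR, with 1 higher and 16 lower at an unadjusted p under 0.05, beside 5.64% and 4.91% of all 11089 genes tested. With all CD8 samples, 81 members were tested. This smaller fit keeps cKO replicate 5 and the library labelled cKO replicate 4 among fewer cKO samples, and their part in its values was not tested. With all CD8 samples kept, the median set against genes of the same length group was -0.03. The part of length or RNA quality in the values of cKO replicate 5 was not tested.

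The lower member with the smallest p in CD8 cells was Ndufa4 (chr6:11900372-11907450) of complex IV, with 33.7, 22.1, 23.3, 27.6 and 23.5 CPM in control and 25.3, 16.2, 21.3, 19.5 and 12.9 CPM in cKO samples. All cKO samples except replicate 1 were under the lowest control, and cKO replicate 1 lay within the control range (log2 fold change -0.45, SE 0.18, unadjusted p = 0.0237, edgeR adjusted p = 0.778). Ndufa11 (chr17:56717762-56724248) had 20.3, 18.4, 19.6, 20.3 and 23.1 CPM in control and 18.4, 18.5, 15.8, 17.6 and 11.2 CPM in cKO samples, with cKO replicate 5 the lowest and the others close to the controls (log2 fold change -0.32, SE 0.14, unadjusted p = 0.0461, edgeR adjusted p = 0.877). Uqcrh had 25.2, 24.4, 27.2, 36.7 and 32.6 CPM in control and 25.99, 23.5, 29.4, 24.3 and 15.6 CPM in cKO samples, also lowest in cKO replicate 5 (log2 fold change -0.30, SE 0.16, edgeR adjusted p = 0.954). The higher members with the smallest p did not pass either. Atp5mpl (chr12:111961374-111967009) had 7.80, 8.85, 10.5, 10.5 and 11.5 CPM in control and 13.5, 10.8, 10.9, 15.4 and 7.63 CPM in cKO samples, and the highest value came from the library labelled cKO replicate 4 (log2 fold change 0.24, SE 0.19, edgeR adjusted p = 0.979). Ndufa9 (chr6:126821863-126849144), an accessory subunit near the quinone site, had 21.98, 24.7, 23.1, 23.2 and 28.1 CPM in control and 25.5, 24.6, 26.6, 32.3 and 24.5 CPM in cKO samples, highest in the library labelled cKO replicate 4 (log2 fold change 0.14, SE 0.12, edgeR adjusted p = 0.979). Ndufb6 (chr4:40270591-40279421), an accessory subunit of the membrane arm, had 2.53, 4.01, 3.47, 4.52 and 4.56 CPM in control and 4.45, 4.41, 4.90, 6.81 and 2.82 CPM in cKO samples, and its highest value, too, was that of the library labelled cKO replicate 4 (log2 fold change 0.29, SE 0.26, edgeR adjusted p = 0.979).

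Whether the change with Tox4 loss differed between CD8 and DP cells was tested as an interaction over 12131 genes, of which 0.107% were higher in CD8 cells and 0.0% lower. Of 82 members tested, 0 passed in either direction by edgeR, 0 had an unadjusted p under 0.05, beside 3.48% of all genes higher and 1.79% lower, and DESeq2 gave 0 and 0, beside 0.231% and 0.0742%. The median of the difference between the log2 fold changes, CD8 minus DP, was -0.18 over the members and -0.01 over all genes tested. Without the library labelled cKO replicate 4 it was -0.20, and without cKO replicate 5 -0.10, with 0 members passed by edgeR and 0 at an unadjusted p under 0.05 in both cases. In simulated data this interaction test missed the planned share of changes recovered. A p that misses the threshold does not show that the values were equal. The p-values cover the spread between these samples, whose labels do not state that each comes from a separate mouse.

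The 7 related lists were read in the same cKO comparisons, and by edgeR 0 genes of them passed in DP cells, in CD8 cells or in the interaction. Among 78 mitochondrial ribosome genes, 3 were higher and 0 lower at an unadjusted p under 0.05 in DP cells (median 0.07), and 0 higher and 2 lower in CD8 cells (median -0.12). The 3.85% that were higher in DP cells were under the 5.07% of all genes tested, and the 2.56% that were lower in CD8 cells were near the 2.54%. The cytosolic ribosomal proteins had a median log2 fold change of 0.16 in DP cells, with 81 of 83 estimates positive, and of -0.22 in CD8 cells, with 5 of 80 positive. Complex II and cytochrome c genes had medians of 0.01 in DP and 0.01 in CD8 cells, the further assembly factors -0.03 and -0.06, the regulators -0.03 and -0.01, and the glycolysis enzymes 0.04 and 0.02. For the cycling cell markers the median was 0.37 in DP cells, with a summed level of 1908, 1157 and 1186 TPM in the DP cKO samples, and 0.21 in CD8 cells. At an unadjusted p under 0.05 by edgeR, the other 6 lists together held 3 higher and 1 lower of 172 genes tested in DP cells, beside 5.07% and 4.11% of all genes, and 2 higher and 3 lower of 167 in CD8 cells, beside 3.06% and 2.54%, all under the shares over all genes. In the interaction all 7 lists held 2 higher and 5 lower of 250, beside 3.48% and 1.79% of all genes. DESeq2 likewise gave 0 genes of these 7 lists in the 3 tests.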

How the data were processed

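The authors deposited 2 tables of raw read counts per gene, with exonic lengths in the DP table, one for 6 DP and one for 10 CD8 samples. According to the submitters' processing notes, fastp 0.13.1, HISAT2 2.1.0 and featureCounts 1.6.1 were used, with the mm10 build. The build of the CD8 table is not stated separately in the sources used here. Groups were taken from the sample labels.

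The deposited counts were tested here with edgeR 4.0.16 in R 4.3.3 (quasi-likelihood F test, TMM normalization, filterByExpr, 2-sided, Benjamini-Hochberg adjustment over all genes tested, threshold 0.05), on the groups compared alone, and for the interaction and the values per sample on all 16 samples. TPM were computed from counts and exonic length. Steps were tested on simulated data, and near-identical copies were searched with blastn 2.17.0+. In the simulated data the interaction test recovered fewer of the changes than planned. Its bar was lowered after that run was seen. Members and lists were chosen with earlier results of these data known. Genes were named by rule: Tox4; the members with the 3 smallest p in each direction in each cKO comparison; per complex, those passing with the 2 largest rises and falls between control cells and those of highest and lowest TPM; paired or tissue-restricted forms; and per related list the 2 passing genes of smallest p. Other genes named, those of counts of at most 5 included, were chosen after their values were seen. 1 gene that the rule takes is not reported here.

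Alternatives were RLE and upper-quartile normalization, DESeq2 1.42.0, no filter, at least 10 counts in every sample, the replicate number as a block, all 4 groups in one fit, each sample left out, thresholds of the study (1.5-fold, mean TPM of at least 1), CD8 samples without number 1, male CD8 controls, and centring by length. Added after seeing the data were CD8 samples without numbers 1 and 2, DESeq2 with the block, and a length offset. In DP cells, deviations of same-numbered control and cKO samples from their group means correlated across genes with r of 0.643, 0.12 and 0.29, each over 0.1, so the numbers were taken to pair these samples, from the data alone. Samples of different numbers had r from -0.476 to 0.325, and 2 of these 6 pairs exceeded the same-numbered pairs 2 and 3 (0.325 and 0.297).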

Additional observations from a re-analysis of the deposited data

Results flagged for a closer look

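In 6 of 88 groups of 5 CD8 samples, from 44 quantities, 1 sample lay far from the other 4, where chance gives about 1 in 20 groups. CD8 control replicate 1 was low for 2 of them, with Ndufs3 at 14.8 CPM (nearest sample 19.9) and Atp5b at 298 CPM (nearest 403). It is the library with the most genes counted. Uqcr10 was low in CD8 cKO replicate 5, at 5.16 CPM against 10.7 CPM in the nearest sample, the library in which short genes took the smallest share of counts. Ndufa9 was highest in the library labelled cKO replicate 4, at 32.3 CPM against 26.6 CPM. Cox6a2, with few counts in CD8 cells, was highest in control replicate 5, at 0.149 CPM with the other 4 samples at 0, and in cKO replicate 1, at 0.523 CPM against 0.117 CPM.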

How the results depend on the processing

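In DP cells 0 members passed by edgeR under every alternative, the replicate block included, while DESeq2 gave 1 higher and DESeq2 with the replicate block 1 higher (Cox6a2, adjusted p = 0.00733 and 0.0182, over the alternatives from 0.00733 to 0.521). In CD8 cells and in the interaction 0 passed under every alternative run. With each sample left out, the median log2 fold change of the members ranged from 0.03 to 0.11 in DP cells, from -0.19 to -0.02 in CD8 cells and from -0.29 to -0.09 in the interaction. Between control cells these fits gave 69 to 71 members lower, 0 to 3 higher and medians from -1.31 to -1.22. The number of members higher was 2 by DESeq2, 0 with the replicate block, 2 without the CD8 samples numbered 1 and 2 (Ndufaf6 and Ndufa10), 0 with the male CD8 control samples and 5 with the length offset. The length offset gave 51 lower and a median of -0.67, and centring by exonic length a median of -0.76. With that offset the log2 fold change turned to 0.36 for Atp5d, 0.018 for Atp5g1, 0.36 for Atp5g2, 0.024 for Cox5a, 0.33 for Cox5b, 0.25 for Ndufa4, 0.12 for Ndufs7, 0.33 for Uqcrb and 0.22 for Ndufa12, which passed in neither fit, and the cause was not tested. The replicate block took the call from 4 members between control cells (Ndufaf6, Cox6b2, Ndufaf2 and Uqcrb), where same-numbered samples share only a number (r of -0.01, -0.13 and 0.05). In CD8 cells same-numbered samples correlated with r of 0.365, 0.299, 0.318, 0.313 and 0.0908. Of the values of single genes under an alternative, all 699 in CD8 cells and 540 in DP cells stayed on their side of the threshold, 2 in DP cells (Cox6a2) gained a call, and between control cells 2420 stayed, 84 lost a call, 9 gained one and 8 turned in sign. These 8 had a call in the main fit or in the alternative. Turns without a call in either, such as those of Ndufa12 and Ndufaf7, are counted among the values that stayed. Depth limits most the members with few counts, such as Cox6a2 and Ndufaf8.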

Other observations

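Some marker lists outside oxidative phosphorylation had lower values in DP cKO than in DP control cells, without passing by edgeR in the fit without the replicate block. Over all 11748 genes tested in DP cells, 4.11% were lower and 5.07% higher at an unadjusted p under 0.05, and 0.664% were lower by DESeq2. Of 10 markers of CD8 single-positive cells, 9 estimates were negative (median log2 fold change -0.63), 0 passed by edgeR, 5 were lower at an unadjusted p under 0.05 and 2 passed by DESeq2 (Ccr7 and Itgae). Itgae, an integrin of CD8 cells, had 9.44, 10.2 and 4.98 CPM in DP control and 2.59, 4.17 and 4.17 CPM in DP cKO samples (log2 fold change -1.17, SE 0.32, edgeR adjusted p = 0.26). Of 8 myeloid and dendritic cell markers tested, 0 passed by edgeR, 4 were lower and 1 higher at an unadjusted p under 0.05 (median -1.04), and 3 passed by DESeq2 as lower (Lyz2, H2-Aa and Cd74). Their summed level was 176, 313 and 143 TPM in DP control and 98.0, 109 and 132 TPM in DP cKO samples, with Cd74 the most abundant. Of 5 markers of CD4 single-positive cells, 4 estimates were negative (median -0.54), 3 were lower at an unadjusted p under 0.05 and 1 passed by DESeq2 as lower (Zbtb7b). All 4 B cell markers tested had negative estimates (median -1.08), with 2 lower at an unadjusted p under 0.05 and 0 passed by DESeq2. Of 3 markers of gamma-delta and NK cells, 2 estimates were negative (median -0.47), and 1 was lower at an unadjusted p under 0.05 and passed by DESeq2 (Il2rb). Of 10 markers of DP thymocytes, 5 estimates were negative (median -0.03) and 1 was lower at an unadjusted p under 0.05. All 12 cycling cell markers had positive estimates in DP cells, and 1 was higher at an unadjusted p under 0.05.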
